A study of Arabidopsis thaliana with 28 samples.

Results

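GI (GIGANTEA, AT1G22770) and COR27 (COLD REGULATED GENE 27, AT5G42900) were followed in Arabidopsis thaliana, accession Col-0, after whole plants had been exposed to UV-B, ultraviolet light of short wavelength that reaches the ground. The genes were taken by name, as the probe sets annotated to these loci on the ATH1 array, and each has 1 probe set. They are 2 of 13286 genes that the annotation used here ties to a probe set of their own. In the TAIR10.1 assembly GI lies on chromosome 1, positions 8061751 to 8067790, and COR27 on chromosome 5, positions 17197641 to 17199910. Where within the transcripts the probes lie is not given in the sources used here.

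Wild-type plants grew on Murashige and Skoog medium under 16 h of light a day. At 16 days of age they received UV-B at 1.18 W/m2 for 15 min, beginning 3 h into the light period, and total RNA of shoots and of roots was hybridised. Labelled times were 0.25, 0.5, 1, 3, 6, 12 and 24 h, with 2 arrays for each of 14 groups of tissue and time. All 28 arrays came from exposed plants, and arrays of unexposed plants were not analysed here, so 0.25 h in the same tissue is the reference for each later time.

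GI encodes a large plant-specific protein that links the circadian clock to flowering time and acts with the blue-light receptors FKF1 and ZEITLUPE. Its transcript is known to climb through the light period of a day and to fall toward and during the night, under repression by the morning factors CCA1 and LHY. COR27 encodes a small protein, induced by cold and by light, that acts in the evening part of the clock, and CCA1 represses its transcript as well. Both genes are therefore read here against the hour of the light period as well as against the time since exposure.

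Counted from the start of the exposure, the 7 labelled times fell at hours 3.25, 3.5, 4, 6, 9 and 15 of the light period and at hour 3 of the next one. Counted from its end, each fell 0.25 h later, and the labels do not say which count applies. The 12 h samples came 1 h before dark (0.75 h if times count from the end), and 8 h of dark lay between them and the 24 h samples. The 24 h and the 0.25 h samples lay at nearly the same hour of the light period. The 0.5 h and 1 h samples, at hours 3.5 and 4, matched the hour of the 24 h samples less closely. For all pairs other than 24 h against 0.25, 0.5 or 1 h, time since exposure and hour of the day cannot be told apart.

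Values are MAS5 signals, the brightness summary of a probe set on a linear scale, which the authors had scaled to a trimmed mean of 99.2 to 99.4 on every array. Array medians were 36.7 to 39.0 for the shoot arrays and 44.3 to 47.4 for the root arrays. The labelled tissues were checked against their markers. Here and below, a listed gene counts as measured if the annotation used here ties a probe set to it alone. Other listed genes may have a probe set that was not named. The summed signal of the 4 measured of 14 shoot markers (photosynthesis genes) was 12147 to 23723 on shoot arrays and 252 to 509 on root arrays, and that of the 2 measured of 16 root markers, the root hair expansins EXPA7 and EXPA18, was 10.5 to 38.4 on shoot arrays and 80.5 to 216 on root arrays. Changes are log2 differences of signal + 9.58, the 25th percentile of all signals, with limma's standard error and its p adjusted by the Benjamini-Hochberg method over 14806 probe sets. A change is called rise or fall at an adjusted p under 0.05. Nothing in the labels tells whether the replicates of a group were grown apart, so the p-values rest on the spread of these arrays alone, which can be technical.

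In shoots, GI was low at 0.25 h, climbed steeply to 1 h, dropped by 3 h, reached the same height again at 6 h and came down by 12 h. The signals were 35.6 and 31.9 at 0.25 h, 72.2 and 71.8 at 0.5 h, and 214 and 236 at 1 h. They were 96.5 and 96.7 at 3 h, 222 and 224 at 6 h, 73.9 and 86.2 at 12 h, and 64.5 and 67.5 at 24 h. The 1 h and 6 h arrays stood above all other shoot arrays and overlapped each other, and both 0.25 h arrays stood below all others. GI lay above the array's median on 26 arrays, and the exceptions were the 0.25 h shoot arrays.

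The climb in shoots was already present at 0.5 h, where GI had risen by 0.91 ± 0.09 (log2 ± SE, n = 2 against 2; limma adjusted p = 8.95e-07), a 2.13-fold ratio of mean signals, in a comparison where 14% of all probe sets were called. It rose by a further 1.52 ± 0.09 from 0.5 h to 1 h (limma adjusted p = 2.14e-10; 21.6% of probe sets called). At 1 h the mean signal of 225 ± 15.9 (SD, n = 2) was 6.67 times that at 0.25 h, which put GI at rank 21 of 14806 by the size of its rise (26.7% called). Fewer cells expressing a gene and less of its RNA per cell cannot be told apart in such samples of whole shoots or roots.

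From 1 h to 3 h GI fell by 1.14 ± 0.09 on the log2 scale (limma adjusted p = 1.10e-09; 45.1% of probe sets called), to a mean signal of 96.6 ± 0.105 (SD, n = 2). From 3 h to 6 h it rose again by 1.13 ± 0.09 (limma adjusted p = 4.09e-09; 39.1% called), to 223 ± 1.94. The 6 h and 1 h levels differed by -0.01 (95% interval -0.20 to 0.17; limma adjusted p = 0.926). From 6 h to 12 h GI fell by 1.38 ± 0.09 (limma adjusted p = 7.83e-11; 50.9% called). Against 0.25 h it was still higher at 3 h by 1.29 ± 0.09 (51.1% called), at 6 h by 2.43 ± 0.09 (63.2% called) and at 12 h by 1.05 ± 0.09 (45.8% called), with adjusted p of 1.06e-10, 3.57e-15 and 2.98e-09 in limma.

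At 24 h, at nearly the hour of the light period of the 0.25 h samples, GI in shoots was 66.0 ± 2.08 against 33.7 ± 2.68 (SD, n = 2 each). The difference was 0.80 ± 0.09 (limma adjusted p = 7.29e-07; 25.8% of probe sets called), a ratio of 1.96. GI was 1.63 ± 0.09 lower at 24 h than at 1 h (limma adjusted p = 3.15e-12; 39.8% called), while the levels at 24 h and 0.5 h differed by -0.11 (95% interval -0.30 to 0.07; limma adjusted p = 0.382). From 12 h to 24 h the change was -0.24 ± 0.09 (limma adjusted p = 0.0348; 40.1% called), and the change was no longer called with the second 12 h array left out (-0.14, adjusted p = 0.330) or with either 24 h array left out (adjusted p = 0.145 and 0.0733). In the order of shoot levels, 1 h and 6 h came first, then 3 h, then 12 h, 0.5 h, 24 h and 0.25 h. Neighbours whose difference was not called were 1 h and 6 h, 12 h and 0.5 h (adjusted p = 0.232 in limma), and 0.5 h and 24 h. The 12 h level was below that at 3 h (-0.25 ± 0.09, limma adjusted p = 0.0247; 50.4% called), a call lost when either 3 h array or the first 12 h array was left out and when shoots were fitted alone.

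**Figure D1:**
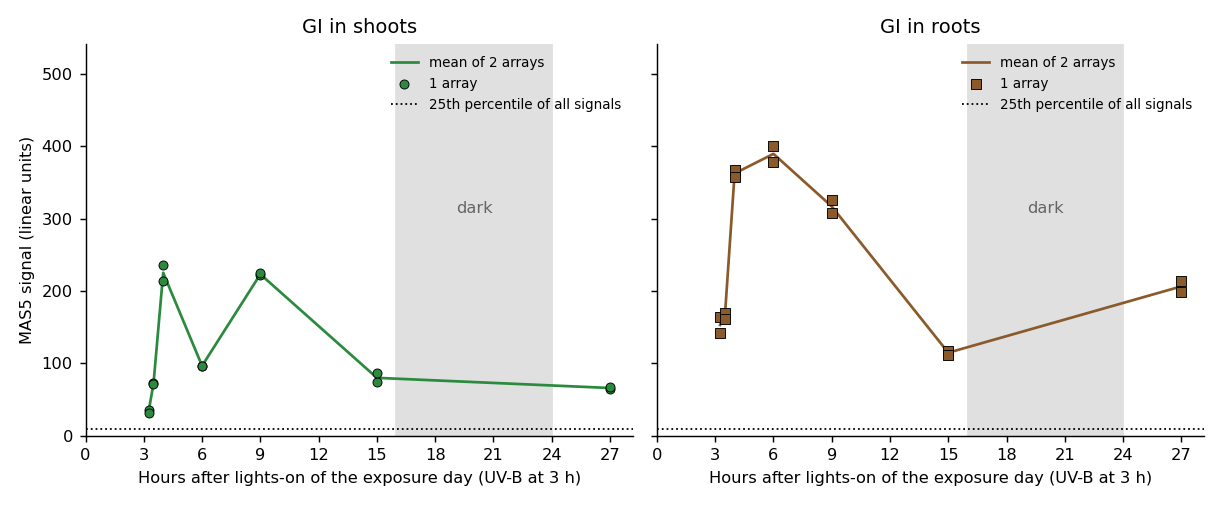
MAS5 signal of GI (linear units) on each of 28 arrays against hours after lights-on of the exposure day, counted from the start of the exposure, in shoots (left) and roots (right). Points are arrays, lines join means of 2 arrays, grey marks the dark period and the dotted line the 25th percentile of all signals (9.58). Shoots show separate high points at hours 4 and 9 with a mean of 96.6 between them, whereas roots stay between 308 and 401 over those hours.

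In roots, GI was higher than in shoots throughout and traced a broader hump, with no dip at 3 h. The root signals were 164 and 142 at 0.25 h, 169.5 and 162 at 0.5 h, and 367 and 357 at 1 h. They were 378 and 401 at 3 h, 308 and 326 at 6 h, 117 and 112 at 12 h, and 198 and 214 at 24 h. All 6 arrays of 1 h, 3 h and 6 h stood above all other root arrays, and the 12 h arrays stood below them all.

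No rise was called in roots at 0.5 h (0.11 ± 0.09, 95% interval -0.08 to 0.30; limma adjusted p = 0.521; 9.74% of probe sets called). GI rose by 1.09 ± 0.09 between 0.5 h and 1 h (limma adjusted p = 6.13e-08), in a comparison where 7.35% of probe sets were called. Against 0.25 h it was higher by 1.20 ± 0.09 at 1 h (limma adjusted p = 4.12e-09; 12.6% called), by 1.30 ± 0.09 at 3 h (limma adjusted p = 4.66e-10; 23.2% called) and by 1.01 ± 0.09 at 6 h (limma adjusted p = 4.48e-08; 15.8% called). The step from 1 h to 3 h was 0.10 (95% interval -0.08 to 0.29; limma adjusted p = 0.488; 18.8% called).

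The step from 3 h to 6 h in roots was -0.29 ± 0.09 (limma adjusted p = 0.0336; 13.5% of probe sets called), and it was not called when any of the 4 arrays of these times was left out (adjusted p = 0.0803 to 0.244). From 6 h to 12 h GI fell by 1.39 ± 0.09 (limma adjusted p = 1.56e-09; 15% called), the 26th largest fall of 14806 probe sets. It thereby ended the day below its 0.25 h level (-0.38 ± 0.09, limma adjusted p = 0.00370; 21.3% called), which was not called with the first 0.25 h array left out (-0.29, adjusted p = 0.0840). Between 12 h and 24 h, across the night, GI rose by 0.80 ± 0.09 in roots (limma adjusted p = 1.02e-06; 29.6% called).

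At 24 h GI in roots was 206 ± 11.3, against 153 ± 15.2 at 0.25 h (SD, n = 2 each). The difference of 0.41 ± 0.09 (limma adjusted p = 0.00290; 14.3% of probe sets called) was not called with the second 0.25 h array left out (adjusted p = 0.0707) or with the second 24 h array left out (adjusted p = 0.0566). Against 1 h, the 24 h level was 0.79 ± 0.09 lower (limma adjusted p = 1.41e-06; 21.4% called). In the order of root levels, 3 h, 1 h and 6 h came first, then 24 h, 0.5 h, 0.25 h and 12 h. Neighbours that did not differ were 3 h and 1 h, 1 h and 6 h (adjusted p = 0.150 in limma), and 0.5 h and 0.25 h. The 24 h level was above that at 0.5 h by 0.30 ± 0.09 (limma adjusted p = 0.0198; 20.8% called), which was not called without either 0.5 h array or the second 24 h array.

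GI was lower in shoots than in roots at every time, with both shoot arrays below both root arrays. Over the mean of the 7 times the difference was -1.15 ± 0.03 (shoots minus roots, log2 ± SE; limma adjusted p = 3.25e-19), in a comparison where 91.3% of all probe sets were called. Lower in shoots were 59.9% of all probe sets and higher 31.4%, and GI ranked 2199 of 14806 from the lowest. At single times 43.2% to 52.8% were called lower in shoots. Array medians were also lower on shoot arrays (36.7 to 39.0 against 44.3 to 47.4). The gap changed with time. Mean signals in shoots were 0.220 of those in roots at 0.25 h and 0.248 at 3 h, but 0.621 at 1 h, 0.704 at 6 h and 0.697 at 12 h.

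The change from 0.25 h was tested for a difference between tissues as an interaction. GI rose more in shoots than in roots at 0.5 h (0.80 ± 0.13, limma adjusted p = 6.83e-04; 6.12% of probe sets called), at 1 h (1.24 ± 0.13, limma adjusted p = 7.77e-07; 14.2% called) and at 6 h (1.42 ± 0.13, limma adjusted p = 1.48e-08; 48.7% called). At 12 h the difference was 1.43 ± 0.13 (limma adjusted p = 2.95e-08; 26.5% called), with GI above its 0.25 h level in shoots and below it in roots. At 3 h it was 0.00 in size (95% interval -0.26 to 0.26; limma adjusted p = 0.992; 36.1% called). With the pseudocount at the median signal in place of the 25th percentile the differences at 0.5 h, 1 h and 6 h were 0.50, 0.77 and 0.93, still called, and that at 3 h was called (-0.27, limma adjusted p = 0.0421). With that pseudocount the changes of GI in shoots at 0.5 h, 12 h and 24 h against 0.25 h were 0.59, 0.69 and 0.51, also still called. The tissue difference at 24 h was 0.39 ± 0.13 (limma adjusted p = 0.0442; 12.4% called), a call lost under 5 other settings and under 18 of the 28 removals of an array.

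Differences between consecutive times were compared between tissues after these values had been seen. GI fell more, from 1 h to 3 h, in shoots than in roots (-1.24 ± 0.13, limma adjusted p = 2.69e-07; 33.3% of probe sets called). It rose more in shoots from 3 h to 6 h (1.42 ± 0.13, limma adjusted p = 1.05e-07; 23.6% called). The fall from 6 h to 12 h differed by 0.01 between the tissues (95% interval -0.25 to 0.27; limma adjusted p = 0.956; 36.2% called). Across the night the step was lower in shoots than in roots (-1.04 ± 0.13, limma adjusted p = 3.16e-06; 21% called). The difference for the step from 0.5 h to 1 h, 0.44 ± 0.13, had a limma adjusted p of 0.0273 (11.2% called) and was lost under 2 other settings and under 7 removals of an array.

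COR27 in shoots was dim from hour 3.25 to hour 6 of the light period, appeared at 6 h (hour 9), was highest at 12 h (hour 15, shortly before dark), and was dim again at 24 h. The shoot signals were 0.630 and 0.888 at 0.25 h, 1.24 and 4.51 at 0.5 h, 0.455 and 0.825 at 1 h, and 0.50 and 0.253 at 3 h. They were 22.5 and 30.6 at 6 h, 71.6 and 74.9 at 12 h, and 1.03 and 2.12 at 24 h. The 10 shoot arrays of the other times all lay under 9.58, so those times have no order among themselves, and the 6 h and 12 h arrays stood above them without overlap. No detection calls were used here, so a signal under 9.58 is called dim and not absent.

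COR27 lay above the array's median on 4 arrays, those of 12 h in shoots and 6 h in roots. It therefore passed the filter on dim probe sets through the groups where it is highest, and a probe set kept in that way had to differ over time. With no such filter, every change of COR27 called here was also called. For single changes of COR27 against dim groups a lower bound of the ratio is given, the bright mean over 9.58. No size or rank of those log2 changes is given, since they rest on the pseudocount. Tissue differences are given as sizes, which rest on it too. COR27 in shoots was at least 2.77-fold higher at 6 h than at 0.25 h (limma adjusted p = 1.80e-08; 63.2% of probe sets called) and at least 7.64-fold higher at 12 h (limma adjusted p = 8.38e-12; 45.8% called).

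From 3 h to 6 h COR27 rose in shoots at least 2.77-fold (limma adjusted p = 8.13e-08; 39.1% of probe sets called). From 6 h to 12 h it rose by 1.20 ± 0.18 on the log2 scale (limma adjusted p = 8.95e-06; 50.9% called), from a mean signal of 26.6 ± 5.76 to 73.2 ± 2.30 (SD, n = 2 each), a ratio of 2.76. At 24 h it was at least 7.64-fold lower than at 12 h (limma adjusted p = 2.91e-11; 40.1% called). Without a pseudocount the step from 6 h to 12 h was not called (1.48, limma adjusted p = 0.207), and the size of the changes against dim groups moved with the pseudocount, from 1.44 to 6.61 for 12 h against 0.25 h.

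**Figure D2:**
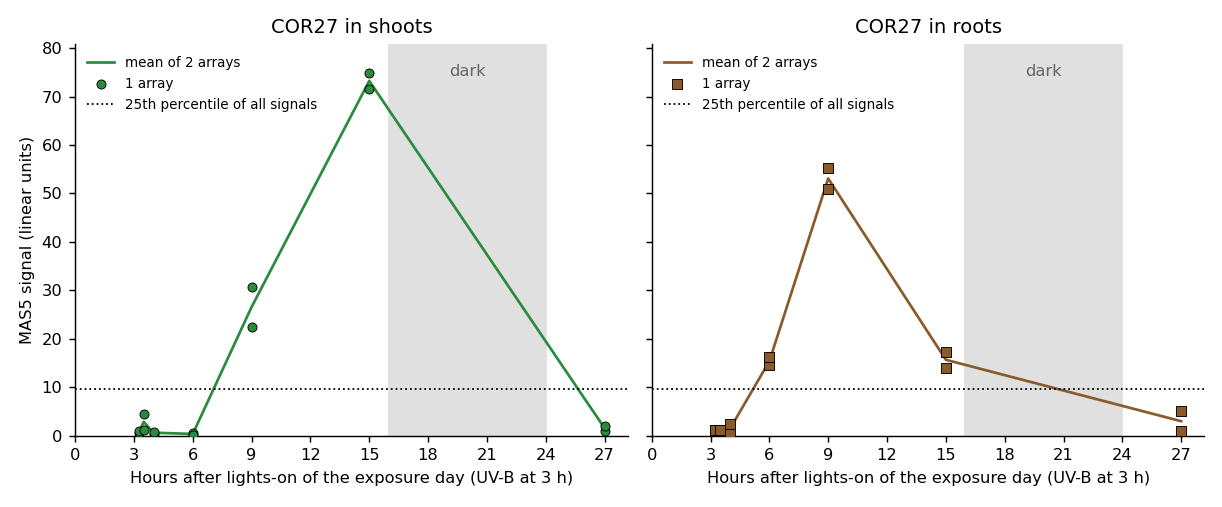
MAS5 signal of COR27 (linear units) on each of 28 arrays against hours after lights-on of the exposure day, in shoots (left) and roots (right). Points are arrays, lines join means of 2 arrays, grey marks the dark period and the dotted line the 25th percentile of all signals (9.58). Shoots are highest at hour 15, with a mean of 73.2, and roots at hour 9, with a mean of 53.1.

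In roots COR27 appeared earlier and was highest earlier. The root signals were 1.24 and 1.09 at 0.25 h, 0.898 and 1.1 at 0.5 h, and 0.524 and 2.48 at 1 h. They were 14.6 and 16.2 at 3 h, 51.0 and 55.2 at 6 h, 14.1 and 17.3 at 12 h, and 0.992 and 5.02 at 24 h. The 3 h and 12 h arrays overlapped, the 6 h arrays stood above them, and 8 of 14 root arrays lay under 9.58.

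COR27 in roots was at least 1.61-fold higher at 3 h than at 0.25 h (limma adjusted p = 3.14e-05; 23.2% of probe sets called) and than at 1 h (limma adjusted p = 6.28e-05; 18.8% called). At 6 h it was at least 5.54-fold higher than at 0.25 h (limma adjusted p = 1.62e-09; 15.8% called). From 3 h to 6 h the mean rose from 15.4 ± 1.17 to 53.1 ± 3.00 (SD, n = 2 each), by 1.33 ± 0.18 on the log2 scale (limma adjusted p = 2.82e-05; 13.5% called) and a ratio of 3.45. From 6 h to 12 h it fell by 1.31 ± 0.18 (limma adjusted p = 4.92e-05; 15% called), to 15.7 ± 2.29.

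At 12 h COR27 in roots was still at least 1.64-fold above 0.25 h (limma adjusted p = 3.46e-05; 21.3% of probe sets called), and at 24 h it was at least 1.64-fold lower than at 12 h (limma adjusted p = 2.25e-04; 29.6% called). The levels at 12 h and 3 h differed by 0.01 (95% interval -0.36 to 0.39; limma adjusted p = 0.967). Without a pseudocount the steps from 3 h to 6 h (1.79, adjusted p = 0.270 in limma) and from 6 h to 12 h (-1.77, adjusted p = 0.253 in limma) were not called. The change at 6 h against 0.25 h ranged from 1.15 to 5.51 over the pseudocounts tried.

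The tissue with more COR27 signal changed over the day. At 3 h COR27 was at least 1.61-fold lower in shoots than in roots (limma adjusted p = 7.78e-07; 76% of all probe sets called). At 6 h shoots had 0.501 of the root signal (-0.80 ± 0.18, limma adjusted p = 4.00e-04; 73.7% called), and at 12 h they had 4.67 times the root signal (1.72 ± 0.18, limma adjusted p = 1.55e-08; 75.6% called). In each case both arrays of a tissue lay on the same side of both arrays of the other. The 6 h difference was not called without a pseudocount.

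As interactions with the change from 0.25 h, the tissue differences of COR27 were -1.27 ± 0.25 at 3 h (limma adjusted p = 4.86e-04; 36.1% of probe sets called), -0.75 ± 0.25 at 6 h (limma adjusted p = 0.0192; 48.7% called) and 1.77 ± 0.25 at 12 h (limma adjusted p = 1.93e-05; 26.5% called). Their sizes rest on the pseudocount, since both tissues were dim at 0.25 h. Over the other settings the 3 h difference ranged from -4.79 to -0.43 and the 12 h difference from 1.02 to 2.87. The 6 h interaction was not called with the first 6 h shoot array left out (-0.58, limma adjusted p = 0.101), with the second 6 h root array left out (limma adjusted p = 0.0629) and with quantile normalization between all arrays (-0.53, limma adjusted p = 0.0861). COR27 rose from 6 h to 12 h in shoots while it fell in roots, a difference of 2.52 ± 0.25 (limma adjusted p = 2.35e-07; 36.2% called). The steps from 1 h to 3 h (-1.22 ± 0.25, limma adjusted p = 8.96e-04; 33.3% called) and from 12 h to 24 h (-1.87 ± 0.25, limma adjusted p = 1.26e-05; 21% called) also differed. Over the other settings the difference from 1 h to 3 h ranged from -4.54 to -0.41. The difference for the step from 3 h to 6 h did not pass the test (0.52, 95% interval -0.00 to 1.05; limma adjusted p = 0.143; 23.6% called), but was called without a pseudocount (4.42, limma adjusted p = 0.0252) and with quantile normalization between all arrays (0.72, limma adjusted p = 0.0417). Without a pseudocount the interactions at 6 h and 12 h and those of the steps from 6 h to 12 h and from 12 h to 24 h were not called (limma adjusted p = 0.0714 to 0.846).

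**Figure D3:**
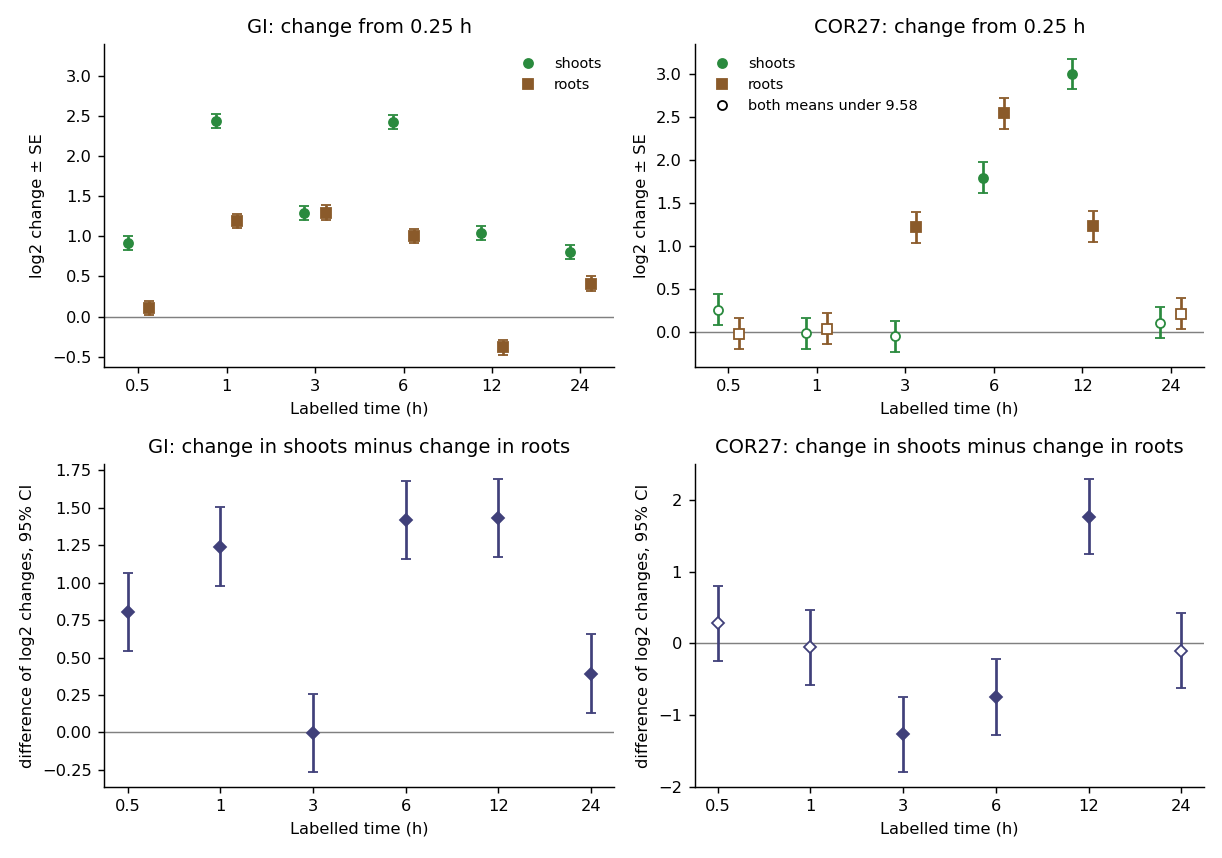
Log2 change from 0.25 h of GI (top left) and COR27 (top right), as limma estimates with standard errors, 2 arrays against 2, by labelled time in hours, and below each the change in shoots minus the change in roots with its 95% interval. Open symbols mark changes for which the means compared all lay under 9.58. For GI the tissue difference is at 0 at 3 h and above 1.2 at 1 h, 6 h and 12 h, and for COR27 it is below 0 at 3 h and 6 h and above 0 at 12 h.

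Over all times GI changed in both tissues by limma's moderated F test. It had an F of 197 in shoots (adjusted p = 2.11e-15, rank 126) and 107 in roots (adjusted p = 2.85e-12, rank 47). Among all probe sets, 85.8% were called in shoots and 53.5% in roots. The 2 genes differed in when they were highest, although both were called higher than at 0.25 h at 6 h and 12 h in shoots and at 3 h and 6 h in roots. In roots COR27 was highest at 6 h, when GI, highest at 3 h (389), was still at 317. GI was highest at 1 h and 6 h in shoots, when COR27 was dim or at 26.6, and at 12 h, when COR27 was highest in shoots, GI had fallen to 80.0 ± 8.69 (SD, n = 2). Over the 14 group means, centred in each tissue, Pearson's r between them was 0.23, a description only, since both genes were read on the same arrays.

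Directional patterns like these were counted over all 14806 probe sets after the values were seen, with no test. The order of GI in shoots, higher at 1 h than at 0.25 h, lower at 3 h than at 1 h and higher at 6 h than at 3 h, with every step called, was shown by 94 probe sets (0.635%). A called fall from 6 h to 12 h as well was shown by 44 (0.297%). The same 3 steps were called in roots for 39 probe sets (0.263%), and GI was not among them. Called rises at both steps from 0.25 h to 0.5 h and from 0.5 h to 1 h in shoots were shown by 211 (1.43%), GI included. The pattern of COR27, its highest mean at 12 h in shoots and at 6 h in roots, was shared by 364 probe sets (2.46%). By their highest mean alone, 13.9% of probe sets peaked at 1 h, 23.0% at 6 h and 17.8% at 12 h in shoots, and 15.9% at 3 h, 13.3% at 6 h and 21.9% at 12 h in roots.

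Few other clock genes could be read on these arrays with the annotation used here. Of 16 evening and day clock genes listed, 3 were measured and kept, GI, COR27 and AT4G33980, a gene named by locus only in the tables used here. All 3 were higher than at 0.25 h at 6 h and 12 h in shoots (list medians 2.33 and 2.37, against -0.02 and 0.03 over all probe sets), where 31.6% and 25.5% of all probe sets were called higher. In roots all 3 were higher at 3 h and 6 h (list medians 1.30 and 2.48, against 0.00 over all probe sets at both times), with 11.9% and 7.88% of all probe sets called higher. At 12 h in roots 2 were higher and 1, GI, lower (11.5% and 9.79% of all). GI and COR27 are themselves 2 of the 3, so these counts add AT4G33980 alone. Each median is the change of 1 of the 3 genes, that of AT4G33980 at 6 h and 12 h in shoots and at 6 h in roots. Its shoot signal at 0.25 h was dim, so the shoot medians rest on the pseudocount.

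AT4G33980 ran close to COR27. Its signal lay under 9.58 on 10 of 14 shoot arrays and 5 of 14 root arrays, so the sizes of its changes depend on the pseudocount, in roots too. As with COR27, it passed the filter through the groups where it was high. In shoots its mean signal was between 0.393 and 5.58 at 0.25, 0.5, 1, 3 and 24 h, and 40.8 at 6 h and 42.2 at 12 h. It was at least 4.26-fold higher at 6 h than at 0.25 h (limma adjusted p = 2.59e-10) and at least 4.41-fold higher at 12 h (limma adjusted p = 3.18e-10). In roots its mean rose from 9.71 at 0.25 h to 45.3 at 3 h (1.53 ± 0.18, limma adjusted p = 1.18e-06) and 96.5 at 6 h (2.48 ± 0.18, limma adjusted p = 1.73e-09), and was 38.9 at 12 h (1.34 ± 0.18, limma adjusted p = 8.12e-06). As with COR27, the highest root mean came at 6 h and the highest shoot mean at 12 h, although its shoot means at 6 h and 12 h were close together.

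Of 16 morning clock genes listed, 1 was measured, AT5G52660. It was between 51.3 and 75.1 in shoots and between 50.7 and 71.5 in roots by group means, with 1 call against 0.25 h, a rise of 0.36 ± 0.13 at 1 h in shoots (limma adjusted p = 0.0409).

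Of 22 clock output and flowering genes listed, 6 were measured: CCL, SPY, TIC, XCT, AT2G34140 and AT1G69570. At 6 h in shoots 3 of the 6 were higher and 1 lower than at 0.25 h, with a list median of 0.45 against -0.02 over all probe sets, and 31.6% of all probe sets were called in each direction. At 12 h in shoots 2 were higher and 1 lower (list median 0.28 against 0.03), near the 25.5% and 20.2% of all probe sets. In roots 4 were higher at 3 h (list median 0.37 against 0.00; 11.9% of all higher), and 4 higher and 1 lower at 12 h (list median 0.47 against 0.03; 11.5% and 9.79% of all). At 1 h in shoots 1 was higher and 2 lower (1 lower with quantile normalization between all arrays), against 12.7% and 14% of all.

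CCL (CCR-LIKE), whose transcript cycles with the clock and is degraded fast, went from a mean signal of 657 at 0.25 h to 2589 at 6 h (1.97 ± 0.18, limma adjusted p = 7.24e-09) and 2714 at 12 h (2.03 ± 0.18, limma adjusted p = 8.39e-09) in shoots, and was 802 at 24 h. In roots it was 73.6 at 0.25 h and rose by 0.79 to 0.96 at 3 h to 24 h (highest adjusted p = 0.00316 in limma). AT1G69570 went the other way in shoots, from 115 at 0.25 h through 26.0 at 3 h to 1.98 and 17.7 on the 12 h arrays (-2.80 ± 0.23, limma adjusted p = 1.67e-09), and back to 65.4 at 24 h. In roots it fell by 1.22 ± 0.23 at 12 h (limma adjusted p = 5.56e-04), from 32.4 to 8.46. The first of these 12 h shoot signals and the 12 h root mean lay under 9.58, so the sizes of both falls depend on the pseudocount. AT1G69570 was thus lowest in both tissues at 12 h, when GI was lowest in roots and COR27 highest in shoots.

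SPY (SPINDLY), an O-fucosyltransferase that acts in gibberellin signalling and interacts with GI, rose by 0.64 ± 0.12 at 6 h in shoots (limma adjusted p = 5.41e-05), and by 0.58 ± 0.12 at 6 h and 0.62 ± 0.12 at 12 h in roots (limma adjusted p = 0.00136 and 4.98e-04). TIC (TIME FOR COFFEE), a nuclear clock regulator, rose by 0.66 ± 0.09 at 6 h in shoots (limma adjusted p = 3.33e-06) and by 0.51 ± 0.09 at 1 h in roots (limma adjusted p = 6.22e-04). Its group means stayed above that at 0.25 h at all later times in both tissues. At 24 h they were 272 against 190 in shoots and 307 against 245 in roots. XCT (XAP5 CIRCADIAN TIMEKEEPER) had 1 call, a fall of 0.66 ± 0.19 on the log2 scale at 1 h in roots (limma adjusted p = 0.0255). AT2G34140 was under 9.58 in every shoot group and rose in roots by 0.47 ± 0.15 at 3 h and 0.76 ± 0.15 at 12 h (limma adjusted p = 0.0287 and 0.00108).

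**Figure D4:**
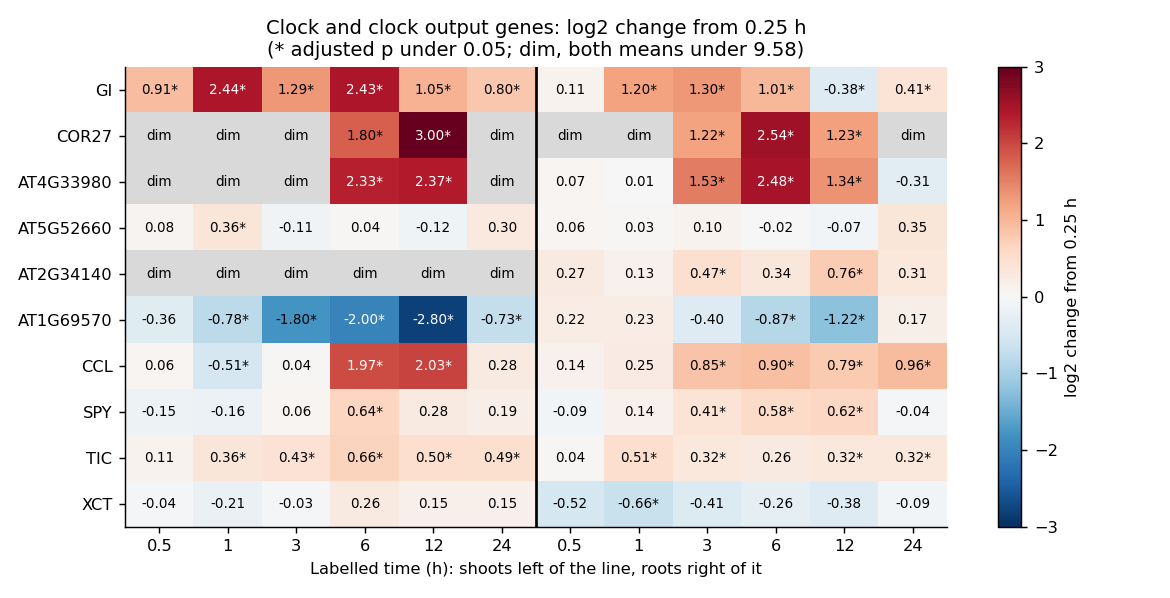
Log2 change from 0.25 h of the 10 measured clock and clock output genes (rows) at 6 labelled times in hours in shoots (left of the line) and roots (right), as limma estimates from 2 arrays against 2. Asterisks mark an adjusted p under 0.05, and grey cells marked dim have both means under 9.58. GI is the gene with called rises from 0.5 h in shoots, and COR27 and AT4G33980 share called rises at 6 h and 12 h in shoots and at 3 h, 6 h and 12 h in roots.

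In the same 6 h and 12 h shoot samples in which COR27, AT4G33980 and CCL were high, all 4 measured shoot markers (RCA, LHCB4.1, LHCB4.2 and PSAN) were lower than at 0.25 h, with list medians of -0.79 and -0.66 (-0.02 and 0.03 over all probe sets, of which 31.6% and 20.2% were called lower). With quantile normalization between all arrays 1 and 2 of the 4 were lower. Of the 4 measured reference genes (GAPC2, PEX4, AT4G34270 and AT2G28390), 1 was higher and 1 lower at both times (0 lower with that normalization, in limma), with list medians of 0.13 and 0.22. The part of either in the results for GI and COR27 was not tested.

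The UV-B photoreceptor pathway and the cold response were listed as pathways in which these genes or their relatives are studied. Of 27 genes of the UV-B pathway, 3 were measured (HYH, UGT84A1 and AT1G16260), and all 3 were higher at 1 h in shoots (list median 1.19 against -0.02 over all probe sets, of which 12.7% were called higher). HYH, a bZIP factor related to HY5, went from 226 at 0.25 h to 528 at 1 h in shoots (1.19 ± 0.13, limma adjusted p = 4.79e-07), when GI was also high. Unlike GI, HYH did not return to that height at 6 h, where it was 68.3 (-1.60 ± 0.13 against 0.25 h, limma adjusted p = 9.57e-10). In roots HYH was highest at 1 h, at 249 (1.52 ± 0.13, limma adjusted p = 3.33e-08), and was 83.6 at 3 h, when GI was highest in roots.

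Of 19 cold response genes, 3 were measured (COR15A, COR15B and COR47), and all 3 were higher at 1 h and at 6 h in shoots (list medians 2.54 and 0.90, against -0.02 over all probe sets at both times), where 12.7% and 31.6% of all probe sets were called higher. COR15A and COR15B encode proteins that protect chloroplast membranes during freezing. COR15A was highest at 1 h in shoots, at 314 (2.92 ± 0.28, limma adjusted p = 8.86e-08), when COR27, named for its induction by cold, was dim. COR15B was at 188 at 1 h (2.54 ± 0.25, limma adjusted p = 9.22e-08) and at 186 at 12 h (2.53 ± 0.25, limma adjusted p = 2.92e-08). At 3 h in shoots 2 of the 3 were higher and 1 lower than at 0.25 h (23.6% and 27.5% of all probe sets). COR47, a dehydrin, had a dip at 3 h in shoots, as GI had. Its mean signals were 220 at 0.25 h, 383 at 1 h, 157 at 3 h, 328 at 6 h and 176 at 12 h. COR15A and COR15B did not rise from 3 h to 6 h by group means. In roots COR47 was the gene of the 3 that was called, higher at 1, 3, 6 and 24 h.

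Likeness of pattern was measured as Pearson's r over the 14 group means, each tissue centred on its own mean, among 3084 probe sets of a gene of their own whose means spanned at least 1 on the log2 scale in a tissue. These r describe courses read on the same 28 arrays. For GI the most like were AT1G10090 (0.83, and 0.79 for its other probe set), AT3G12620 (0.81) and GID1B (0.78), a receptor of gibberellin, and none exceeded 0.9. Where GI fell in shoots from 225 at 1 h to 96.6 at 3 h, the mean of GID1B went from 63.6 to 56.3 and that of AT3G12620 from 103 to 119. For COR27 they were AT4G33980 (0.95), AT4G32340 (0.95), AT4G17140 (0.92) and AT1G17665 (0.92), and 12 probe sets exceeded 0.9. By Spearman's rank correlation 2 of the 4 probe sets stayed among the 4 most like GI and 0 among the 4 most like COR27, whose dim values have no order.

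**Figure D5:**
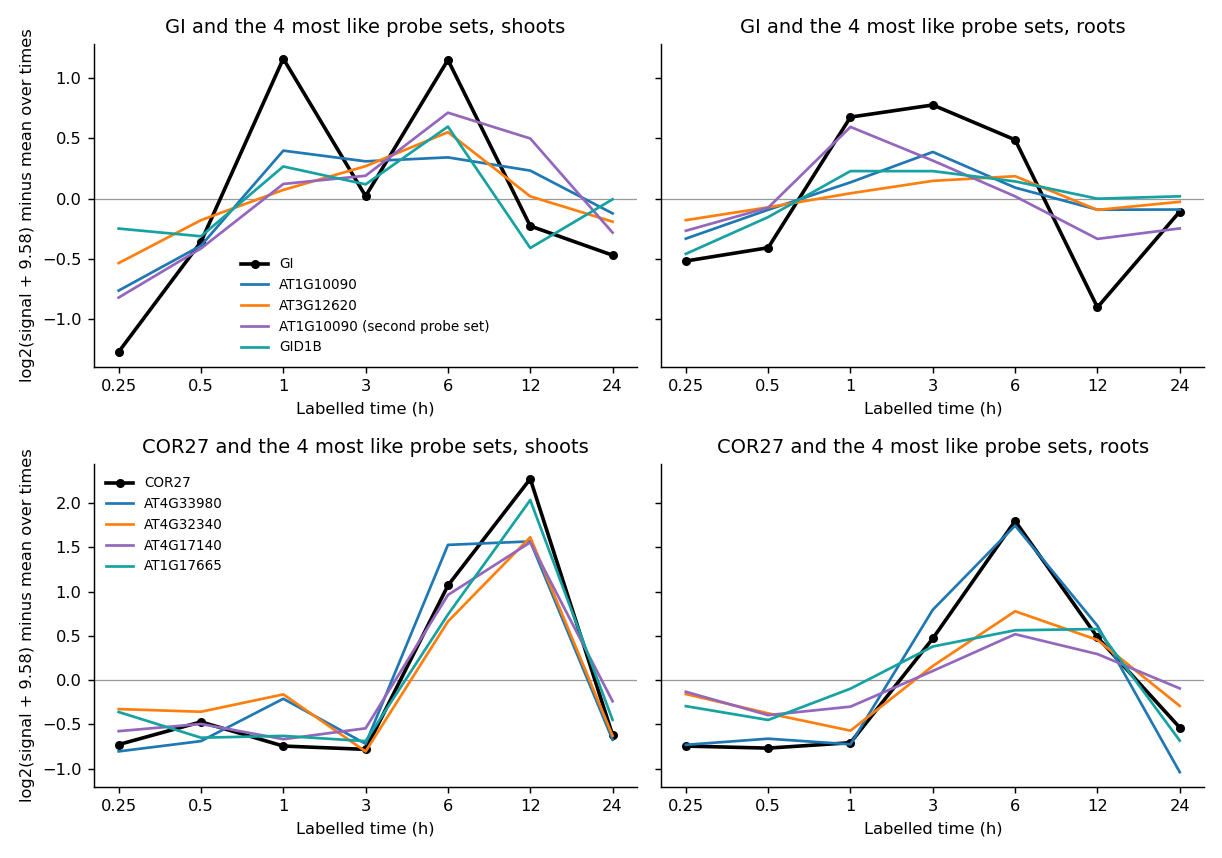
Group means of log2(signal + 9.58), minus the mean over the 7 times, for GI (top, black) and COR27 (bottom, black) and for the 4 probe sets most like each (colours), in shoots (left) and roots (right), by labelled time in hours. Each point is a mean of 2 arrays. The probe sets like COR27 rise with it to 6 h and 12 h in shoots. Those like GI also stand above their shoot start by 6 h, but gain less than GI does. The drop of GI in shoots between 1 h and 3 h (-1.14) is not matched by them. Over that step AT3G12620 and 1 probe set of AT1G10090 rise, and GID1B and the other probe set of AT1G10090 fall far less.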

How the data were processed

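Transcripts of 28 samples (7 times, shoots and roots, 2 arrays each) were read on 1-colour ATH1 arrays. The deposited values are intensities, MAS5 signals on a linear scale, per the submitters' processing notes. MAS5 version, settings and detection calls are not given in the sources used here. The authors had scaled each array to a common level, as the trimmed means show.

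Controls (64 of 22810 probe sets) were removed, the 25th percentile of all signals (9.58) was added and log2 was taken. A probe set was kept if 2 or more arrays had it above the median of that array (14806 of 22746). limma 3.58.1 in R 4.3.3 (statmod 1.5.0) fitted 14 group means with the trend and robust options (14 residual and 7.24 prior degrees of freedom). P-values were 2-sided. The fit was tested on simulated data. The number of arrays limits the precision. Figures were drawn with matplotlib 3.10.9.

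Probe sets were named where the annotation tables tie them to 1 gene (13513, of which 7914 were kept). Named genes were both members, all measured clock list members, up to 4 measured members of each other list by the F statistic over time, and the 4 probe sets most like each member. The members and lists were chosen with earlier results of these data known. Of 137 list members, 26 had a probe set named in this way and count as measured.

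Replicate numbers were checked for pairing. Over 91 pairs of groups, deviations of same-numbered arrays correlated at -0.22 to 0.22 (median -0.01), and 6 pairs exceeded 0.1, so the numbers were not taken to pair samples. Alternatives were no pseudocount or the median signal as pseudocount, quantile normalization between all arrays or within tissues, centring, a filter at the 75th percentile or none, fits of each tissue alone, eBayes without trend and robust, the replicate number as a block in the design, duplicateCorrelation over shoots and roots of a time and number, and leaving out each array in turn. Differences between tissues in consecutive steps, and pattern counts, were added after values were seen.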

Additional observations from a re-analysis of the deposited data

Results flagged for a closer look

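The change of GI and of COR27 differed between shoots and roots in 15 contrasts, each by limma's test of the difference itself (change in shoots minus change in roots, log2 scale). In those contrasts 6.12% to 48.7% of all probe sets were called. Not called were those of GI at 3 h and from 6 h to 12 h, that of COR27 from 3 h to 6 h, and those of COR27 in which all means were dim. Against 0.25 h, the difference for GI was 0.80 at 0.5 h, 1.24 at 1 h, 1.42 at 6 h, 1.43 at 12 h and 0.39 at 24 h. For consecutive times, which were compared after the values had been seen, it was 0.44 from 0.5 h to 1 h, -1.24 from 1 h to 3 h, 1.42 from 3 h to 6 h and -1.04 from 12 h to 24 h. Of these, the difference at 24 h and that from 0.5 h to 1 h were lost under several settings.

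For COR27 the difference against 0.25 h was -1.27 at 3 h, -0.75 at 6 h and 1.77 at 12 h. For consecutive times it was -1.22 from 1 h to 3 h, 2.52 from 6 h to 12 h and -1.87 from 12 h to 24 h. Without a pseudocount the differences at 6 h and 12 h and those from 6 h to 12 h and from 12 h to 24 h were not called, and that at 6 h was also lost with quantile normalization between all arrays and without the first 6 h shoot or the second 6 h root array. The sizes move with the pseudocount. Over the other settings the difference at 3 h ranged from -4.79 to -0.43, the difference from 1 h to 3 h from -4.54 to -0.41, and the difference from 6 h to 12 h from 1.48 to 3.25.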

How the results depend on the processing

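Of 49 main results for GI and COR27, 38 kept their side of the threshold, and their direction where called. The settings were the 11 alternatives that could be fitted and the 28 removals of an array. Direction was not compared where neither fit was called. The uncalled difference of COR27 between shoots and roots over the mean of the 7 times (-0.07) ranged from -0.73 to 0.08 over the other settings. For GI in shoots, 24 h against 12 h (-0.24) was not called with the pseudocount at the median signal (-0.18) or separate fits (-0.24), and ranged from -0.34 to -0.14 without single arrays. For the tissue difference of GI at 24 h (0.39), values not called were 0.16 with the pseudocount at the median, 0.37 with quantile normalization between all arrays, 0.35 with centring, 0.39 with no filter and 0.39 with replicate number as a block (adjusted p = 0.0522). Without single arrays it ranged from 0.30 to 0.49. The replicate block changed no other main call. The tissue difference of GI at 3 h was called at -0.27 with the pseudocount at the median. Without single arrays GI in roots ranged from -0.33 to -0.25 for 6 h against 3 h, from -0.48 to -0.29 for 12 h and from 0.32 to 0.51 for 24 h against 0.25 h. Without a pseudocount COR27 was not called at 1.48 (12 h against 6 h in shoots), 1.79 and -1.77 (6 h against 3 h and 12 h against 6 h in roots), and -0.37 and 2.87 (tissue differences at 6 h and 12 h). The 6 h tissue difference was -0.53 with quantile normalization between all arrays and -0.91 to -0.58 without single arrays. The cause was not tested.

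The filter at the 75th percentile removed COR27. Counts of called probe sets moved by over 1.5 times in 25 cases. Separate fits moved them from 2080 to 1183 (0.5 h in shoots), from 1442 to 2221 (0.5 h in roots) and from 2123 to 3268 (24 h in roots), and the other 22 were removals of an array. With quantile normalization 177 of 192 list counts stayed within 1.5 times. The planned search of promoters for motifs was not run, since no sequences were used here.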
